A study of Zea mays with 24 samples.

Results

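In seeds of the maize inbred line B73, 62 of 26495 tested genes, 0.234% of them, had their peak in the endosperm that lies against the scutellum (EAS). A gene was a member when its mean over the 4 EAS libraries was at least 2 CPM (mapped-read counts brought to a common library size and composition) and at least 8 times the highest mean among the 5 other tissues. These means chose the members, so the distance of EAS from the other tissues is given below as a description and was not tested. RNA of 6 dissected tissues was sequenced, with 4 libraries each: EAS, endosperm (End), scutellar aleurone layer (SAL), apical scutellum (AS), embryo (Emb) and pericarp (Per). All plants were untreated wild type, grown under glass (16 h of light, day temperature 24 °C, night temperature 19 °C), and the label of SAL replicate 1 leaves out the name of the line. Seed age is not among the labels, which also do not say whether End samples held EAS cells, whether Emb samples held AS cells, or how many plants or seeds went into a sample. Replicates 1, 2, 3 and 4 were labelled with harvest on 27 April, 1 May, 4 May and 18 May, apart from EAS replicate 3 (5 April as written), Emb replicate 1 (27 April of another year) and SAL replicate 4 (no date).

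The endosperm of a cereal grain stores starch and protein, and the scutellum is the embryonic organ that takes up these reserves and passes them on to the embryo. Embryo and endosperm are not joined by plasmodesmata, so nutrients and signals between them cross cell walls and membranes. The EAS is the endosperm side of this contact face, the AS is its embryonic side, and the SAL is the part of the outer endosperm layer that the labels name after the scutellum. By its title, the study is about molecules through which parts of the seed communicate.

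The deposited files identify genes by number and pair no identifier with a symbol or a description. These identifiers belong to another numbering than the 49888 genes that RefSeq lists on assembly Zm-B73-REFERENCE-NAM-5.0, where none of the 41614 identifiers in the files (0), and so none of the 62, was found. No gene name, function or sequence is therefore given, members could not be grouped by role, and the tissue labels could not be checked against marker genes. Libraries held between 15.1 M reads in genes (SAL replicate 2) and 61.1 M (Emb replicate 2), those of EAS held 45.3 M to 51.7 M, and no library other than SAL replicate 2 held fewer than 37.6 M.

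The 62 genes covered a wide range of levels in EAS, from 2.05 to 990.0 CPM, with a median of 14.7 CPM. Of these, 13 had an EAS mean of at least 100 CPM, 36 of at least 10 CPM and 26 lay under 10 CPM. Their summed level was 6314 ± 931 CPM in EAS (SD, n = 4), and 5 genes carried 59.7% of it. CPM are not corrected for transcript length, so these shares are shares of reads and do not rank the genes by number of transcripts. In raw reads, the members held 0.541% ± 0.0924 of the gene reads of an EAS library (SD, n = 4).

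**Figure D1:**
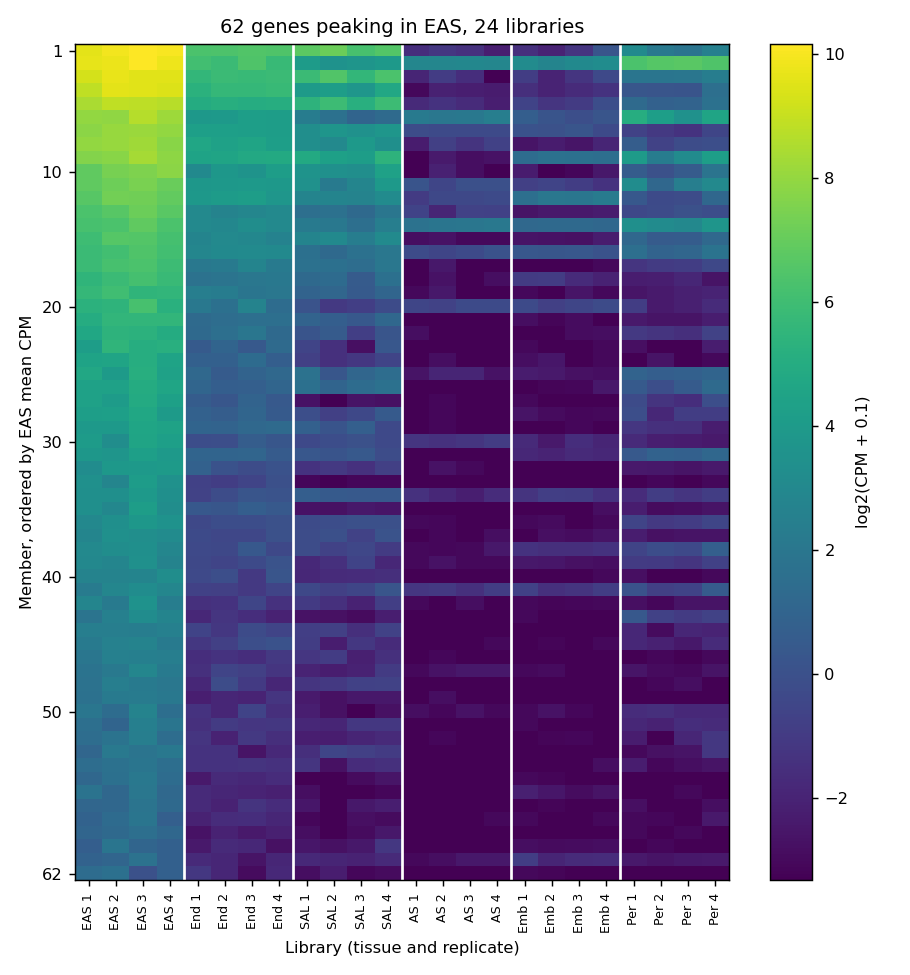
Levels of the 62 genes (rows, ordered by EAS mean) in the 24 libraries (columns, grouped by tissue), as log2(CPM + 0.1). The 4 EAS columns are the brightest in each row by the choice of the genes; End and SAL follow, Per is bright in a few rows, and AS and Emb are dark in most.

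The member with the most reads in EAS was Zm00001d037439. It had 775, 984, 1148 and 1054 CPM in EAS replicates 1 to 4, 82.3, 83.4, 90.3 and 87.0 CPM in End, and 109, 139, 75.6 and 94.1 CPM in SAL. It had 8.59, 4.26, 3.58 and 5.73 CPM in Per, and no more than 0.358 CPM in an AS library and 1.10 CPM in an Emb library. Its lowest EAS library stood above all 20 libraries of the other tissues, the End and SAL libraries overlapped, and AS and Emb were the lowest tissues.

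The next was Zm00001d014983, with 815, 883, 1146 and 921 CPM in EAS and another order of the remaining tissues. Its Per libraries held 82.0, 98.6, 104 and 87.6 CPM, its End libraries 67.8, 59.4, 86.1 and 53.9 CPM and its SAL libraries 16.6, 11.4, 13.0 and 15.4 CPM. AS, with 7.22, 7.10, 7.51 and 7.22 CPM, and Emb, with 9.02, 6.78, 8.29 and 9.39 CPM, overlapped each other. This gene was thus read in each of the 24 libraries. By contrast, 19 of the 62 members had no read in AS, against 4.17% of all tested genes, and 8 had none in Emb, against 3.10%. The rule holds the members low in both tissues, so a larger share without reads is partly set by their choice. These shares are a description only.

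**Figure D2:**
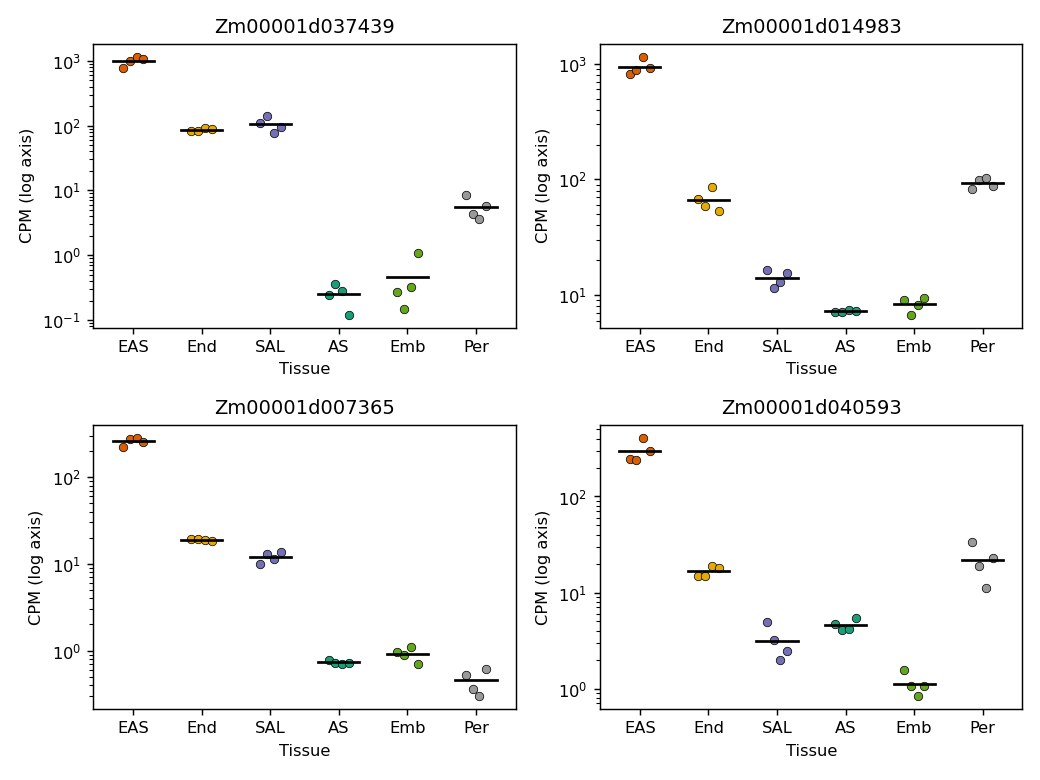
CPM on a log axis in the 6 tissues for Zm00001d037439, Zm00001d014983, Zm00001d007365 and Zm00001d040593. Each point is 1 of 4 libraries and each line their mean; EAS is highest in all 4 panels by the choice of the genes, while the order of the other tissues differs, with Per second for Zm00001d014983 (93.0 CPM) and Zm00001d040593 (21.7 CPM).

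The ratio of the EAS mean to the next tissue's mean ran from 8.05 to 22.5, with a median of 11.6 and quartiles of 9.53 and 13.9. It reached 16 in 9 genes and 20 in 2 genes. Just inside the limit of 8, the 3 lowest ratios were 8.05, 8.08 and 8.37, and just outside it the 3 highest ratios of genes with at least 2 CPM were 7.74, 7.70 and 7.66. At the other limit, the lowest EAS means of members were 2.05, 2.19 and 2.21 CPM, and the highest of genes that met the ratio but not the level were 1.94, 1.77 and 1.74 CPM. In each of the 62 genes the lowest EAS library exceeded the highest of the 20 other libraries, by 2.59-fold to 13.8-fold, and in 18 genes by 8-fold or more. The rule used these same values and makes such a gap likely, so it is a description only. Over all tested genes this gap was not counted. Without composition scaling, the rule kept 48 genes, 44 of them members, and the ratio fell to 6.76 for Zm00001d037439 and 7.56 for Zm00001d014983. In bulk tissue, more cells of a type and more RNA per cell cannot be told apart.

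Outside EAS, the 62 genes were read most in the endosperm tissues. The next highest mean was in End for 40 genes, in SAL for 15, in Per for 6, in Emb for 1 and in AS for none (0). In 48 of the 62 genes End and SAL both lay above AS, Emb and Per. For these orders of the tissues, no count over all tested genes was made to set beside the members. The summed level was 499 ± 29.3 CPM in End, 388 ± 67.4 in SAL, 179 ± 18.6 in Per, 26.2 ± 2.07 in Emb and 22.2 ± 1.03 in AS (SD, n = 4 each). Zm00001d014983 alone made up 51.8% of the sum in Per.

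The End mean was 7.81% of the EAS mean in the median gene, with an upper quartile of 9.05% and a range of 3.54% to 12.4%, although EAS means ran from 2.05 to 990.0 CPM. The rule caps that range at 12.5% and End was the limiting tissue in 40 of the 62 genes, so the choice of members itself narrows the range, and unselected genes were not compared. Taken library by library, the median was 7.53%, 7.36%, 8.67% and 7.56% in End replicates 1 to 4. In SAL the median gene had 4.42% of its EAS mean, with quartiles of 2.46% and 7.59% and a range of 0.113% to 12.4%. The corresponding medians were 0.944% in Per, 0.164% in Emb and 0.0427% in AS. Each of the 62 genes had at least 1 read in each of the 4 End libraries, compared with 54 genes in SAL, 47 in Per, 29 in Emb and 23 in AS. Depth limits the count in SAL, because SAL replicate 2 held 15.1 M reads and every other library at least 37.6 M. Shares of all tested genes read in each library of a tissue were not computed.

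**Figure D3:**
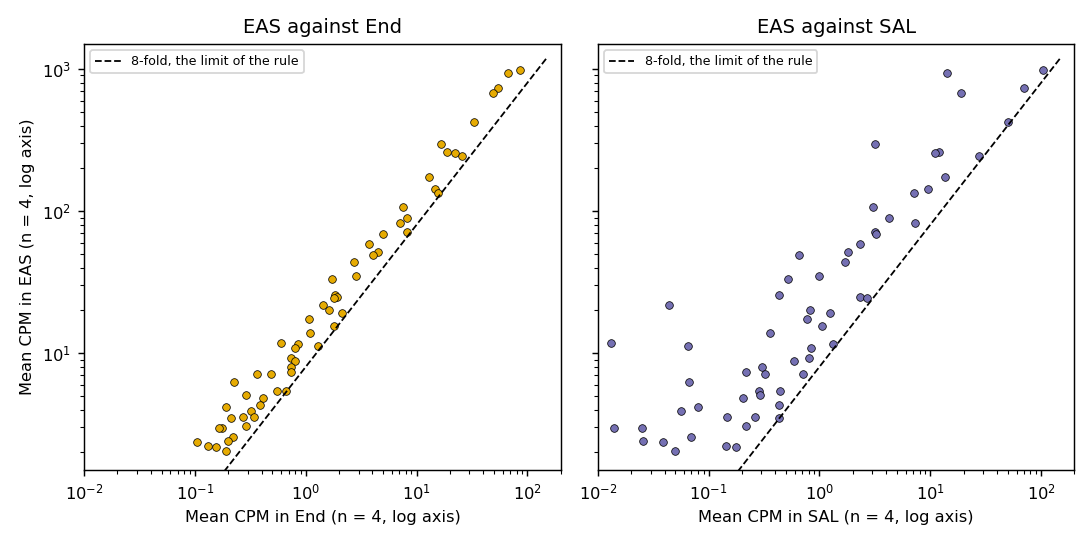
EAS mean CPM against End mean CPM (left) and SAL mean CPM (right) for the 62 genes, on log axes; each point is 1 gene and the dashed line is the 8-fold limit of the rule. No point crosses the line, by the choice of the genes; the EAS to End ratio runs from 8.05 to 28.3, and the EAS to SAL ratio up to 501 in genes with over 3 SAL reads.

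**Figure D4:**
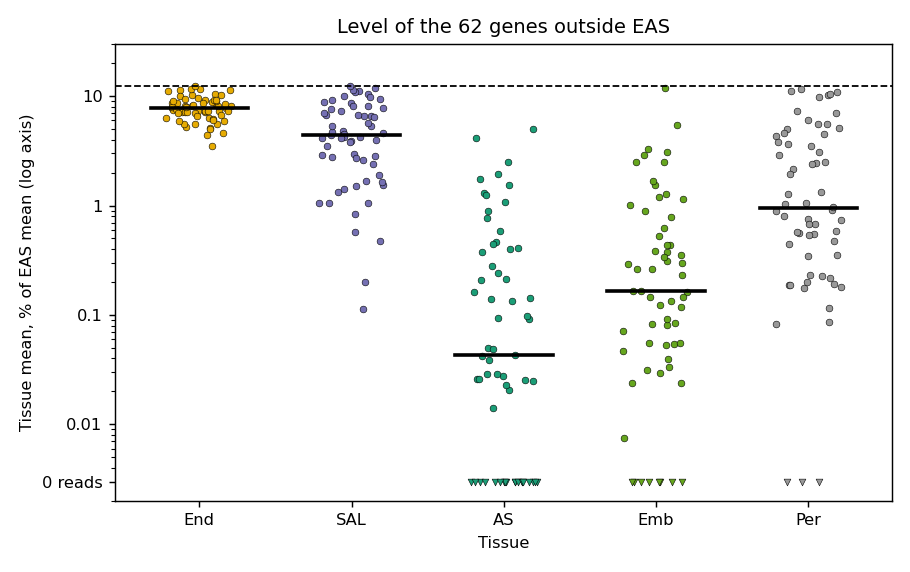
Mean level of the 62 genes in each tissue as a percentage of their EAS mean, on a log axis; points are genes, thick lines medians, triangles genes with 0 reads in the 4 libraries, and the dashed line is 12.5%, the limit of the rule. End has a median of 7.81%, SAL has a median of 4.42%, and AS and Emb spread downwards, with 19 and 8 genes at 0 reads.

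The same rule gave 22 genes peaking in End, 44 in SAL, 104 in Emb, 454 in Per and none (0) in AS. The ratio to the next tissue exceeded 30 in no EAS gene (0 of 62), in 2 of 22 End genes, in 2 of 44 SAL genes, in 46 of 104 Emb genes and in 93 of 454 Per genes. These sets were chosen by the same means, and their difference was not tested. Of 17321 genes with at least 2 CPM in EAS, 4758 had their highest mean there and 154 exceeded the next tissue at least 4-fold.

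Contrasts that contain no EAS library were tested with edgeR's quasi-likelihood test over all 26495 genes, with Benjamini-Hochberg adjustment and a call at an adjusted p under 0.05. The members are constrained to be low in these tissues, but the rule does not set which of the tissues is lower. Differences are given as log2 ratios (LR). The error beside each is its size over the root of the F statistic, which is not a fitted standard error. Of the 62 members, 8 passed the low-count filter only through the EAS libraries, where the rule makes them high. Medians of log2 fold changes and counts of 8-fold differences below come from all 24 libraries and include these 8. In a fit to the 20 other libraries, which tested 26256 genes and 54 members, 28 members were higher and 2 lower in End than in SAL (31.0% and 45.6% of all genes). There, 53 were higher and 0 lower in End than in AS (42.3% and 40.3%), 5 higher and 10 lower in AS than in Emb (19.4% and 19.5%), and 36 higher and 7 lower in SAL than in Per (36.3% and 35.1%).

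Between the End samples and the scutellar aleurone layer, 28 of the 54 members tested without EAS libraries were higher in End and 2 lower. Of all genes in that fit, 31.0% were higher and 45.6% lower. In the fit to all 24 libraries, 36 of the 62 genes were higher in End and 3 were lower, against 31.0% and 45.2%. The median log2 fold change was 0.84 for the members and -0.24 for all genes. Without composition scaling (TMM), the members split into 18 higher and 13 lower, against 13.3% and 70.4% of all genes. On a log2(CPM + 0.1) scale the members' median was 0.71 with TMM and 0.19 without, and that of all genes was -0.20 and -0.80. The members' median thus lay 0.91 above that of all genes with TMM and 0.99 without. The fitted difference reached 8-fold in 4 members higher in End and none (0) lower, against 1.97% and 4.99% of all genes, and 2 of the 4 had 1 to 3 reads in SAL. Zm00001d014983 was higher in End, with libraries of 67.8, 59.4, 86.1 and 53.9 CPM against 16.6, 11.4, 13.0 and 15.4 CPM (LR 2.23 ± 0.14, adjusted p by edgeR = 3.58e-12). Zm00001d002884, at 21.0, 16.6, 29.9 and 19.9 CPM in EAS, was also higher in End, with 1.43, 1.13, 1.90 and 1.27 CPM against 0.0594, 0, 0.0643 and 0.0508 CPM in SAL (LR 4.70 ± 0.46, adjusted p by edgeR = 4.27e-09). Its 4 SAL libraries held 10 reads in all.

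Zm00001d012234 went the other way, with 31.5, 34.9, 32.4 and 33.7 CPM in End and 42.8, 60.3, 36.0 and 60.6 CPM in SAL (LR -0.59 ± 0.17, adjusted p by edgeR = 0.00316). Zm00001d013239 had 0.535, 0.786, 1.07 and 0.994 CPM in End and 1.52, 1.30, 1.25 and 1.25 CPM in SAL (LR -0.65 ± 0.23, adjusted p by edgeR = 0.0143), a call that was lost without End replicate 1 (edgeR adjusted p = 0.0643). The End and SAL libraries did not overlap in these genes, and the sizes lay near the smallest called in the other direction (0.59). The third gene lower in End had 1.79 ± 0.263 CPM there and 2.71 ± 0.560 CPM in SAL (LR -0.62, adjusted p by edgeR = 0.0411).

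The apical scutellum is the embryonic tissue on the other side of the contact face. Of the 54 members tested without EAS libraries, 53 were higher in End than in AS and 0 lower. Of all genes in that fit, 42.3% were higher and 40.3% lower. In the fit to all 24 libraries, 61 of the 62 genes were higher in End and none (0) was lower. Of all tested genes, 42.5% were higher and 39.8% lower. The difference fitted over all 24 libraries was 8-fold or more in 54 of the 62 members, against 12.6% of all genes. None (0) was 8-fold lower, against 8.56%. Among these 54 calls, 19 had 0 reads in AS, 1 of them with a lower bound under 8-fold, and 13 had 1 to 3 reads. Over 3 reads in AS, or a lower bound of at least 8-fold, stood behind 40 of the calls. The median log2 fold change was 6.11, or 4.70 with genes without AS reads set to a bound of 3 reads over the 4 libraries. Zm00001d007365 had 19.5, 19.4, 18.6 and 18.2 CPM in End and 0.775, 0.716, 0.703 and 0.726 CPM in AS (LR 4.69 ± 0.14, adjusted p by edgeR = 2.05e-18). Its EAS libraries held 222, 275, 282 and 256 CPM. Zm00001d012234 had 0.204, 0.298, 0.221 and 0.121 CPM in AS, far below its End libraries (LR 7.27 ± 0.27, adjusted p by edgeR = 1.07e-16). The gene without a call had 0.485 ± 0.0854 CPM in End and 0.357 ± 0.0760 CPM in AS (LR 0.44, adjusted p by edgeR = 0.247).

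Within the embryonic tissues, 21 of the 62 genes had 3 reads or fewer in both AS and Emb, and the other 41 could be compared. In AS 19 genes had 0 reads and in Emb 8. A count of 0 allows up to 0.0151 CPM in AS and 0.0138 CPM in Emb, taken as 3 reads over the 4 libraries and covering counting error only. Of the 54 members tested without EAS libraries, 5 were called higher in AS than in Emb and 10 lower. Of all genes in that fit, 19.4% were higher and 19.5% lower. In the fit to all 24 libraries, 5 of the 62 genes were called higher and 11 lower, against 18.7% and 19.2%. All 16 calls of this fit fell among the 41 genes with more reads. Without AS replicate 4, 3 genes were called higher. The fitted difference reached 8-fold in none (0) of those higher in AS and in 6 of those lower, against 0.155% and 3.32% of all genes. Of these 6, 4 had 0 reads in AS, and with AS set to 3 reads over the 4 libraries, 3 of the 4 had a lower bound under 8-fold.

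Zm00001d040593 was higher in AS, with 4.69, 4.04, 4.16 and 5.41 CPM against 1.56, 1.05, 0.838 and 1.06 CPM in Emb (LR 2.03 ± 0.33, adjusted p by edgeR = 4.14e-05). Zm00001d025861 had 0.551, 0.159, 0.522 and 0.504 CPM in AS and 0.0624, 0.0900, 0.0911 and 0.103 CPM in Emb (LR 2.28 ± 0.42, adjusted p by edgeR = 0.000171). AS replicate 2 stood well below the other AS libraries for this gene, yet above all Emb libraries. In the other direction, Zm00001d001894 had 0.408, 0.657, 0.663 and 0.726 CPM in AS and 2.89, 3.97, 3.79 and 4.82 CPM in Emb (LR -2.65 ± 0.28, adjusted p by edgeR = 1.11e-07). Zm00001d022193 had 0, 0.0995, 0.0402 and 0.0605 CPM in AS and 2.64, 3.12, 3.08 and 2.88 CPM in Emb (LR -5.79 ± 0.68, adjusted p by edgeR = 6.19e-07). Its EAS libraries held 202, 214, 327 and 236 CPM, so even the Emb level was a small part of that in EAS.

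Between the scutellar aleurone layer and the maternal pericarp, 36 of the 54 members tested without EAS libraries were higher in SAL and 7 lower. Of all genes in that fit, 36.3% were higher and 35.1% lower. In the fit to all 24 libraries, 43 of the 62 genes were higher in SAL and 7 were lower, against 36.1% and 34.8%. The median log2 fold change was 1.90 for the members and 0.03 for all genes. The fitted difference reached 8-fold in 19 members higher in SAL and 2 lower, against 2.40% and 4.56% of all genes. Of the 19, 3 had 0 reads in Per, each with a lower bound under 8-fold, and 4 had 1 to 3 reads there. Zm00001d007365 had 10.04, 12.9, 11.2 and 13.6 CPM in SAL and 0.528, 0.364, 0.301 and 0.617 CPM in Per (LR 4.73 ± 0.15, adjusted p by edgeR = 9.46e-16). Zm00001d012234, given above for SAL, had 2.41, 1.70, 1.87 and 3.13 CPM in Per (LR 4.46 ± 0.20, adjusted p by edgeR = 4.62e-14). For neither gene did the SAL and Per libraries overlap.

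The pericarp was higher for Zm00001d014983, at 82.0, 98.6, 104 and 87.6 CPM against 11.4 to 16.6 CPM in SAL (LR -2.71 ± 0.15, adjusted p by edgeR = 4.71e-13). Zm00001d040593 had 33.6, 18.9, 11.1 and 23.1 CPM in Per and 4.95, 3.20, 1.96 and 2.47 CPM in SAL (LR -2.80 ± 0.29, adjusted p by edgeR = 1.64e-08). Of the 6 members whose next tissue was Per, 4 were among the 7 called higher in Per than in SAL. Having Per as the next tissue already means a higher mean in Per than in SAL, so the direction of these calls was set. The comparisons End against SAL, End against AS, AS against Emb and SAL against Per share libraries, so their calls are not independent of each other.

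Between libraries of EAS, End, SAL and Per, the 62 genes had a larger median coefficient of variation than the genes set beside them. Their coefficient of variation in EAS was 21.6% in the median gene, with a range of 5.70% to 46.5%, against a median of 8.54% over the 17321 genes with at least 2 CPM in EAS. Over genes with more than 3 reads in a tissue, the medians were 22.6% against 11.9% in End, 30.9% against 10.6% in SAL and 40.4% against 11.5% in Per, where the members had far fewer reads than in EAS. In no tissue were the comparison genes matched to the members in level, and the part of counting error was not tested. The EAS libraries took the same order for many of the 62 genes. EAS replicate 3 was the highest library for 43 of the 62 genes (69.4%), against 26.5% of the 17321 genes, and EAS replicate 1 was the highest for none (0), against 25.8%. EAS replicate 1 was the lowest library for 38 genes (61.3%), against 28.8%. The median gene stood at 82.8%, 98.0%, 124% and 94.3% of its EAS mean in replicates 1 to 4, whereas the median of the 17321 genes lay between 98.9% and 101% in each. The members were chosen by the mean of these same 4 libraries, and the 17321 genes were not. A high value in 1 library can bring a gene over the limit of the rule. The order and the spread within EAS are therefore descriptions, and the part of the choice in them was not tested. The summed levels were 5132, 6430, 7404 and 6292 CPM in that order, and without replicate 3 the rule kept 55 genes, 54 of them members. EAS replicate 3 is the library whose label gives a harvest date unlike that of the other replicates numbered 3, and the part of date, dissection or library in this order was not tested.

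**Figure D5:**
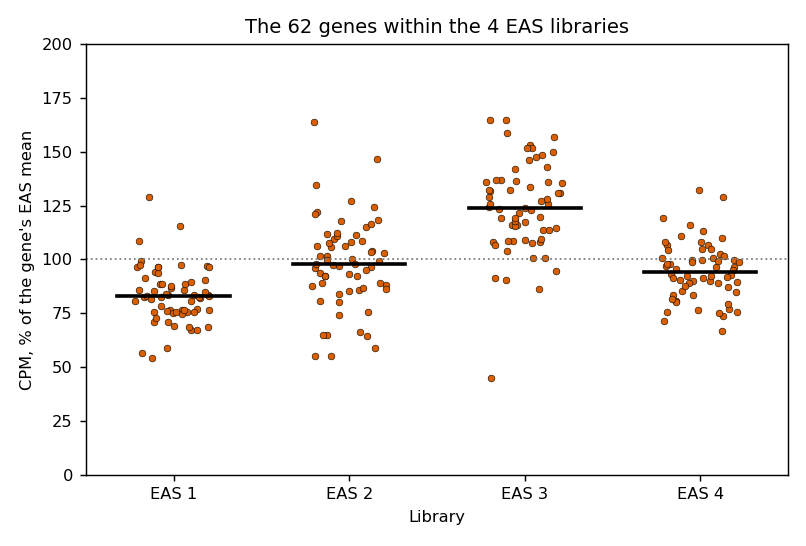
CPM of each of the 62 genes in the 4 EAS libraries as a percentage of the gene's EAS mean; points are genes, thick lines medians (82.8%, 98.0%, 124% and 94.3%) and the dotted line is 100%. Replicate 1 lies mostly under the line and replicate 3 mostly above it.

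The libraries of other tissues also had an order among the members. In End, replicate 3 was the highest for 26 of the 62 genes (41.9%), against 24.7% of the genes with at least 0.1 CPM in End. In SAL, replicate 4 was the highest for 35 genes (56.5%), against 27.1%. In Per, replicates 4 and 1 were the highest for 30 and 22 genes (48.4% and 35.5%), against 38.9% and 20.7%. The 22 include 3 genes with 0 reads in Per, a tie that was counted for the first library. The members were not held to the limit of 0.1 CPM that the comparison genes met in each tissue.

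EAS replicate 4, harvested on 18 May, was compared with EAS replicates 1 to 3 in a fit to all 24 libraries, in which that lone library is assumed to vary like the others. No member was called higher or lower (0 of 62 each way) by edgeR's test. Among all tested genes 0.00755% were called higher and 0% lower, so the comparison made hardly any calls anywhere. The lack of calls does not show that the members were equal on these days. DESeq2 called none of the members either (0 of 62). Fitted log2 differences of the members ran from -0.73 to 0.56, and 44 were negative, against 50.8% of all genes. With 1 library on the later day, the day and the library cannot be told apart.

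A single pair of members had consecutive identifier numbers, Zm00001d044093 and Zm00001d044094, which were picked out after their values had been seen. Zm00001d044093 had 10.9 ± 2.54 CPM in EAS, 0.796 ± 0.109 in End, 0.832 ± 0.0760 in SAL and 0.5001 ± 0.113 in Per (SD, n = 4). Zm00001d044094 had 25.5 ± 5.52 CPM in EAS, 1.84 ± 0.453 in End, 0.428 ± 0.144 in SAL and 0.0220 ± 0.0312 in Per. Their relative levels in SAL and Per thus differed. Whether they are near-identical copies that lose reads to each other was not tested, and no 2 other members lay within 10 identifier numbers of each other.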

How the data were processed

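Poly(A)-selected, paired-end, unstranded libraries were made from about 100 mg of tissue, per the labels' protocols. TopHat2, Bowtie2 and B73 RefGen_v4 appear in the submitters' processing notes, without the annotation release or versions. The authors deposited 1 file of read counts per library, as whole numbers for each gene, with summary rows in the layout of htseq-count. Those rows were dropped: records not uniquely placed were 7.81% to 16.2% of all counted records, those outside genes 4.24% to 6.41% and ambiguous records 1.07% to 2.63%. Rows of microRNA loci were dropped as well. Near-identical gene copies lose reads and are uncertain, and without strand information reads of overlapping antisense genes cannot be told apart.

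In R 4.3.3 with edgeR 4.0.16, 26495 of 41614 genes passed filterByExpr (tissue as group), TMM factors were computed, CPM were taken on effective library sizes, and a quasi-likelihood fit by tissue was made over all 24 libraries. All 62 members passed the filter; in the 20 libraries outside EAS alone, 54 of them do. The test step was checked on simulated counts for each contrast. DESeq2 1.42.0 was an alternative. The design text calls replicates biological; p-values reflect only the spread among the libraries. EAS libraries differed by far more than sampling noise (lowest chi-square per degree of freedom 30.2).

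The labels tie equal replicate numbers to a harvest day, with the 3 exceptions given above. Deviations of same-numbered libraries from their tissue means correlated at 0.105 on average, over 0.1 in 28 of 60 pairs, against -0.035 for other numbers. Deviations from a tissue mean cancel within the tissue, so the second average largely follows from the first and is no separate baseline. The fit with replicate number as a block is an alternative.

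The members, the contrasts and the lists were chosen with earlier results of these data known. Lists by gene symbol, description or promoter motif could not be run, because no identifier carries a name. Identifiers named are the 2 members with the most reads in EAS and, per contrast, up to 2 per direction with the smallest adjusted p.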

Additional observations from a re-analysis of the deposited data

Results flagged for a closer look

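For the 10 members named by rule and for the members' summed level, the 4 libraries of each tissue were checked for a library far from the other 3, in 66 groups of values. In 5 of them the gap to the nearest library, as a share of the whole range, exceeded Dixon's critical value for 4 samples; chance alone flags about 1 group in 20. For Zm00001d013239 in EAS, replicate 3 had 15.4 CPM against 10.3 to 10.5 CPM (gap share 0.968). For Zm00001d001894 in SAL, replicate 4 had 8.89 CPM against 6.35 to 6.72 CPM (gap share 0.857). For Zm00001d025861 in AS, replicate 2 had 0.159 CPM against 0.504 to 0.551 CPM (gap share 0.882). For Zm00001d002884 in AS and in Emb, a single read in 1 library stood against 0 in the other 3 (gap share 1 in both).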

How the results depend on the processing

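The member count was 61 with RLE factors, 48 without TMM factors (44 of them members), 61 with medians, 62 without the low-count filter and 76 at a minimum of 1 CPM. It was 154 at a ratio of 4, 9 at a ratio of 16, 36 at a minimum of 10 CPM and 18 when the lowest EAS library had to be 8 times the highest other library. Leaving out 1 EAS replicate, or SAL replicate 2 (chosen after seeing the data), gave 55 to 67. Leaving out single libraries gave 32 to 36 members higher and 2 to 3 lower in End against SAL, 61 higher and 0 lower in End against AS, 3 to 5 higher and 8 to 12 lower in AS against Emb, and 37 to 44 higher and 7 to 8 lower in SAL against Per. The comparison of EAS replicate 4 with EAS replicates 1 to 3 is left out of these counts. With an 8-fold minimum, the counts were 4 and 0 in End against SAL, 0 and 6 in AS against Emb, and 19 and 2 in SAL against Per; 3 of the 6 and 3 of the 19 had 0 reads in the lower tissue and a lower bound under 8-fold. Without TMM factors, an alternative to the tests chosen after seeing the data, End against SAL gave 18 higher and 13 lower, and the median over all genes moved from -0.20 to -0.80 on a log2(CPM + 0.1) scale. The cause of these changes was not tested. The replicate block gave 38 higher and 3 lower in End against SAL, and 61 and 0 in End against AS. It gave 5 and 12 in AS against Emb, and 42 and 7 in SAL against Per. Pairing thus moved no count by over 1.5 times. RLE factors, DESeq2, no filter and a fit without EAS libraries moved none of these counts by over 1.5 times, and 0 named differences reversed. In a single library, 3 reads correspond to 0.0450 to 0.162 CPM, which limits what can be said of the members in AS and Emb.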

Other observations

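Among the 154 microRNA loci listed beside the genes, 0 met the level and ratio that define the 62 genes, and 2 had their highest mean in EAS at 0.5 CPM or more.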
